A study of Mus musculus with 10 samples.

Results

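The 9 genes described here encode the MHC class II presentation machinery of the mouse: the classical chains H2-Aa, H2-Ab1 and H2-Eb1, the invariant chain Cd74, the transactivator Ciita, and the peptide editors H2-DMa, H2-DMb1, H2-Oa and H2-Ob. They were chosen by name, and each was found once by its Ensembl identifier among the 38887 genes of the deposited table. All 9 were among the 14346 genes with enough counts to be tested. RNA was sequenced from progenitors of the blood lineages, taken from the marrow of mice bearing Lewis lung carcinoma, a transplantable lung tumour. The CK2i group of 5 libraries came from mice treated for 2 weeks at 60 mg/kg with BMS-595, which blocks casein kinase 2 (CK2). The vehicle group of 5 libraries, titled untreated by the submitters, came from tumour-bearing mice given vehicle over the same 2 weeks. All 10 libraries thus share the tumour, and the labels name no mouse strain, age or sorting markers. Nor do they state whether the libraries of a group stem from different mice. The p-values therefore reflect spread among libraries, some of which may be technical.

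MHC class II molecules are pairs of an alpha and a beta chain that show peptides from endocytosed proteins to CD4+ T cells. They are made mainly by dendritic cells, B cells and activated macrophages, and early blood progenitors carry them at low levels. Cd74 holds the groove of a new class II pair closed on its way to the endosome, H2-DM then exchanges the leftover Cd74 fragment for other peptides, and H2-DO, made of H2-Oa and H2-Ob, restrains H2-DM. Ciita switches on class II genes without touching DNA itself: it docks on the RFX complex, which sits on the X box of class II promoters, and on NF-Y, which sits on the Y box. Interferon gamma induces Ciita through the kinases Jak1 and Jak2 and the factor Irf1, among others.

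RefSeq promoter entries on GRCm38.p6, each spanning 250 bases before to 50 bases after a gene start, were found for 6 of the 9 members. They were searched for the letters GATTGG, the core of the Y box, and GCAAC, found in many X boxes, on both strands. The letters GATTGG were in 16.1% of all 32817 promoters and GCAAC in 35.2%. GCAAC lying 10 to 30 bases before GATTGG on 1 strand was in 0.357% of them, and in 4 of the 6 members, H2-Aa, H2-Eb1, H2-Oa and H2-Ob. It was in neither entry of H2-DMa, 1 of which held GATTGG, nor in that of H2-DMb1. The spacing was chosen with these sequences in view. The windows of 60 bases around the Y box are printed below on the strand of each gene, with GATTGG and GCAAC in capitals, because class II promoters are known to carry X and Y boxes here. They come from chr17:34287857-34287916 (minus strand) for H2-Aa, and from chr17:34305763-34305822, chr17:34092291-34092350, chr17:34238803-34238862 and chr17:34153085-34153144 (plus strand) for H2-Eb1, H2-Oa, H2-Ob and H2-DMb1.
H2-Aa: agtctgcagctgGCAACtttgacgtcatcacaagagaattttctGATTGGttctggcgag
H2-Eb1: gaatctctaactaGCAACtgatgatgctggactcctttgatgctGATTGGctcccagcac
H2-Oa: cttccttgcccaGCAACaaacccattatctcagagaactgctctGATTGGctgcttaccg
H2-Ob: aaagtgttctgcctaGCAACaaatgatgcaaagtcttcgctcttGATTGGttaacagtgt
H2-DMb1: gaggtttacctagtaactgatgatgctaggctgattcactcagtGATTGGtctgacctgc
The gap between the motifs was 27 bases in H2-Aa and H2-Oa, 26 in H2-Eb1 and 24 in H2-Ob. The H2-DMb1 window holds GATTGG without the letters GCAAC before it. A match describes these letters only and is not a measure of binding.

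Total counts ranged from 34127674 to 40811539 in CK2i libraries and from 37569160 to 43636152 in vehicle libraries. On the first principal component of log2 CPM (counts per unit of library size, scaled by TMM) over all tested genes, which held 40.8% of the variance, CK2i 2 and CK2i 5 stood apart at 43.26 and 43.68. The other 3 CK2i libraries ranged from -4.1 to 12.48 and vehicle libraries from -29.62 to -9.37. Results are therefore also given without these libraries. The progenitor label was borne out by its markers: Kit ran from 43.6 to 56.5 FPKM in CK2i and 52.5 to 59.5 FPKM in vehicle libraries, and Cd34 from 75.7 to 90.5 FPKM in CK2i and 55.9 to 87.1 FPKM in vehicle libraries. Of 6 progenitor markers 1 rose and 1 fell, where 6.43% of all tested genes rose and 6.76% fell. Mpo, the granule enzyme of myeloid precursors, rose in CK2i (log2 0.63 ± 0.18, edgeR adjusted p = 0.0451) and Kit, the stem cell factor receptor, fell (log2 -0.26 ± 0.06, edgeR adjusted p = 0.0302). Without CK2i 5 the log2 differences were 0.57 and -0.23 (edgeR adjusted p = 0.104 and 0.0735). In such bulk samples, fewer cells of a type and less RNA per cell cannot be told apart.

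Class II transcripts were present at low to middling levels in these progenitors. Levels are given in FPKM, fragments per kilobase of transcript, scaled to library depth, which allows genes of different length to be set side by side. In vehicle libraries, Cd74 averaged 29.9 ± 4.56 FPKM (SD, n = 5), above 74.7% of the tested genes, and H2-DMa 28.3 ± 4.28 FPKM, above 73.4%. H2-DMb1 followed at 11.1 ± 2.28 FPKM and H2-Ab1 at 10.5 ± 1.21 FPKM, near the middle of all tested genes. Lower still were H2-Ob at 4.26 ± 0.728, H2-Aa at 3.91 ± 0.583, H2-Oa at 3.74 ± 0.490 and H2-Eb1 at 2.59 ± 0.840 FPKM. Within each of these 3 tiers, neighbours overlapped in their vehicle values, while no vehicle value of 1 tier reached the next. Ciita was far below them at 0.150 ± 0.0430 FPKM, above only 3.08% of tested genes. The alpha chain H2-Aa stood at 0.316 to 0.423 times the level of its partner H2-Ab1 in vehicle libraries.

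H2-Aa, the alpha chain of the classical molecule I-A (ENSMUSG00000036594; GRCm38 chromosome 17, 34282744 to 34287823, minus strand), had 2.08, 4.33, 3.21, 3.32 and 17.0 FPKM in CK2i libraries 1 to 5, against 3.71, 3.71, 4.04, 4.82 and 3.25 FPKM in vehicle libraries 1 to 5. CK2i 5 stood far above all other libraries, CK2i 1 was the lowest of all, and the remaining CK2i libraries lay within or next to the vehicle range. The log2 difference between CK2i and vehicle, by edgeR's quasi-likelihood test on counts, was 0.61 ± 0.50 (SE, adjusted p = 0.406). Without CK2i 5 the estimate changed sign, to -0.28 ± 0.20 (edgeR adjusted p = 0.381).

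H2-Ab1, the beta chain of I-A (ENSMUSG00000073421; chromosome 17, 34257689 to 34269419, plus strand), had 9.35, 8.84, 9.60, 9.34 and 23.0 FPKM in CK2i libraries 1 to 5, against 9.84, 11.7, 10.9, 11.4 and 8.79 FPKM in vehicle libraries. Again a single CK2i library was high, and the other CK2i libraries were close together at the low end of the vehicle range, all of them above vehicle 5. The log2 difference was 0.19 ± 0.26 (edgeR adjusted p = 0.624) with all libraries and -0.19 ± 0.09 (edgeR adjusted p = 0.223) without CK2i 5.

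H2-Eb1, the beta chain of I-E (ENSMUSG00000060586; chromosome 17, 34305867 to 34316674, plus strand), had 1.44, 2.08, 2.50, 1.95 and 11.6 FPKM in CK2i libraries 1 to 5, against 2.49, 2.05, 2.36, 4.05 and 2.01 FPKM in vehicle libraries. CK2i 5 was high once more, and vehicle 4 was the highest of the rest. The log2 difference of 0.59 ± 0.54 (edgeR adjusted p = 0.464) became -0.39 ± 0.24 (edgeR adjusted p = 0.321) without CK2i 5. The antisense gene Gm20513, which overlaps H2-Eb1, held at most 1 count in any library.

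The alpha chain that would pair with H2-Eb1, listed as the polymorphic pseudogene H2-Ea-ps, had 0 counts in all 10 libraries, which allows at most 0.0879 CPM of the total in CK2i 5 (3 counts) and less in every other library. Laboratory mice of the H-2b haplotype, C57BL/6 among them, carry a promoter deletion in this gene and make no I-E.

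Cd74, the invariant chain (ENSMUSG00000024610; chromosome 18, 60803848 to 60812652, plus strand), did not follow the chains it escorts. It had 22.0, 19.7, 38.8, 16.6 and 33.9 FPKM in CK2i libraries 1 to 5, against 26.2, 36.6, 29.5, 32.0 and 25.4 FPKM in vehicle libraries. CK2i 3 was the highest library and CK2i 5 the third highest, while CK2i 1, 2 and 4 lay below all vehicle libraries. The log2 difference was -0.19 ± 0.22 (edgeR adjusted p = 0.574), and without CK2i 3 it was -0.37 ± 0.20 (edgeR adjusted p = 0.196). As a ratio of FPKM, Cd74 stood at 1.99 times H2-Aa in CK2i 5, at 4.55 to 12.1 times in the other CK2i libraries and at 6.64 to 9.86 times in vehicle libraries.

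H2-DMa, the alpha chain of the peptide exchanger (ENSMUSG00000037649; chromosome 17, 34119541 to 34139101), varied little. It had 24.4, 25.9, 27.3, 26.8 and 32.9 FPKM in CK2i libraries 1 to 5, against 26.4, 32.5, 31.9, 28.8 and 22.1 FPKM in vehicle libraries. The groups overlapped almost fully and the log2 difference was -0.02 ± 0.11 (edgeR adjusted p = 0.910). Its gene overlaps that of Brd2 on the opposite strand, which had at least 8410 counts per library, and the strand setting of the counting is not given in the sources used here.

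H2-DMb1, the beta chain partner of H2-DMa (ENSMUSG00000079547; chromosome 17, 34153072 to 34160230), had 11.4, 13.4, 10.3, 10.8 and 15.5 FPKM in CK2i libraries 1 to 5, against 8.89, 12.4, 13.6, 12.2 and 8.51 FPKM in vehicle libraries. CK2i 5 was again the highest, but only 1.17 times the next library in CPM. The log2 difference was 0.18 ± 0.14 (edgeR adjusted p = 0.381). H2-DMb1 has a close paralog in H2-DMb2, with 2.11 to 3.27 FPKM in CK2i and 1.57 to 2.94 FPKM in vehicle libraries, and the split of reads between the copies is uncertain.

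The subunits of H2-DO, the restraint on H2-DM, parted from each other. H2-Oa (ENSMUSG00000024334; chromosome 17, 34092340 to 34095234) had 3.00, 2.91, 3.57, 3.34 and 5.01 FPKM in CK2i libraries 1 to 5, against 3.38, 3.93, 4.47, 3.69 and 3.23 FPKM in vehicle libraries. H2-Ob (ENSMUSG00000041538; chromosome 17, 34238903 to 34254414) had 4.26, 3.86, 3.94, 3.78 and 3.76 FPKM in CK2i libraries, against 3.50, 4.31, 5.44, 4.15 and 3.89 FPKM in vehicle libraries. For H2-Oa, CK2i 5 was the highest library; for H2-Ob it was the lowest CK2i library and vehicle 3 the highest of all. The log2 differences were -0.07 ± 0.16 (edgeR adjusted p = 0.790) for H2-Oa and -0.05 ± 0.12 (edgeR adjusted p = 0.789) for H2-Ob. The antisense gene BC051537, which overlaps H2-Oa, held 6 to 34 counts per library.

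Ciita, the master coactivator (ENSMUSG00000022504; chromosome 16, 10480059 to 10528418, plus strand), was near the limit of detection, with 0.08, 0.19, 0.12, 0.12 and 0.42 FPKM in CK2i libraries 1 to 5, against 0.09, 0.21, 0.16, 0.15 and 0.14 FPKM in vehicle libraries. These values rest on 15, 40, 25, 22 and 73 counts in CK2i libraries and on 21, 40, 32, 31 and 27 counts in vehicle libraries. The gene of Ciita overlaps that of Dexi on the opposite strand, which had 197 to 302 counts per library, 214 of them in CK2i 5. With the strand setting of the counting not given, a share of Dexi reads in the low Ciita counts was not tested. The 73 counts of CK2i 5 have an exact 95% Poisson interval of 57.2 to 91.8, above the 28.6 to 54.5 of CK2i 2 and vehicle 2, the next highest, with counting error alone. CK2i 5 was picked after its values were seen, and libraries of a group differ beyond counting error. The intervals are therefore no test of a difference between libraries. The log2 difference over the groups was 0.32 ± 0.42 (edgeR adjusted p = 0.616), and -0.22 ± 0.29 (edgeR adjusted p = 0.666) without CK2i 5.

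**Figure D1:**
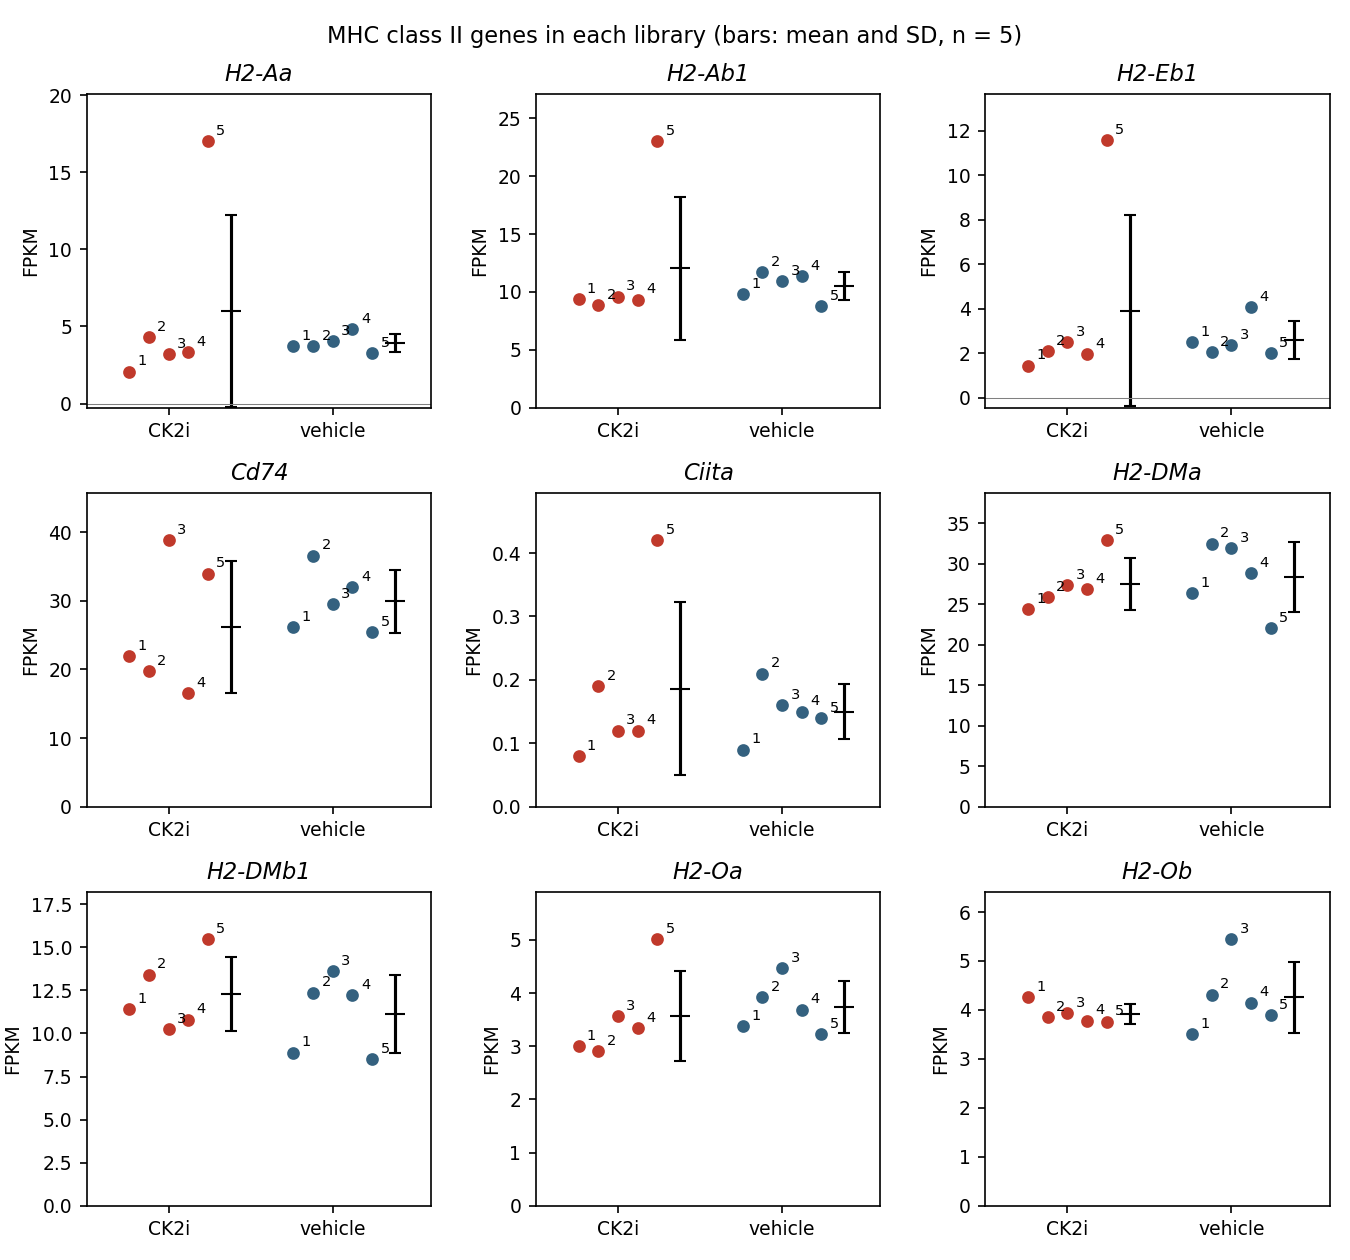
FPKM of the 9 class II genes, 1 panel a gene, with CK2i libraries in red and vehicle libraries in blue, each point labelled with its replicate number and the mean and SD of 5 libraries drawn beside them. CK2i 5 lies far above all other points for H2-Aa, H2-Ab1, H2-Eb1 and Ciita, and not for Cd74 or H2-Ob.

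As a set, none of the 9 members was called at an adjusted p of 0.05 by edgeR, where 13.2% of all 14346 tested genes were. At an unadjusted p of 0.05 the count was also 0 of 9, where 34.6% of all genes passed, and DESeq2 and limma on log2(FPKM + 1) called 0 members as well, where they called 22.1% and 8.34% of all genes. DESeq2 gave H2-Eb1 an estimate but no p, adjusted or unadjusted, so that H2-Eb1 was not tested there. For 0 of the 9 did the groups keep apart without overlap, as they did for 10.9% of all genes. The median log2 difference of the members was 0.18, with 5 above 0 and 4 below, beside a median of -0.00 over all tested genes. Without CK2i 5 the members' median was -0.22, with 8 of 9 below 0, and 0 of 9 passed, where 3.09% of all genes did. When the treated group was reduced to CK2i 1, 3 and 4 it was -0.19, with 7 of 9 below 0 and again none called, where 1.2% of all genes were. No member's difference thus stood out from the spread between libraries. A missed threshold does not show that the groups are alike: the log2 difference of 0.61 for H2-Aa carried an SE of 0.50.

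**Figure D2:**
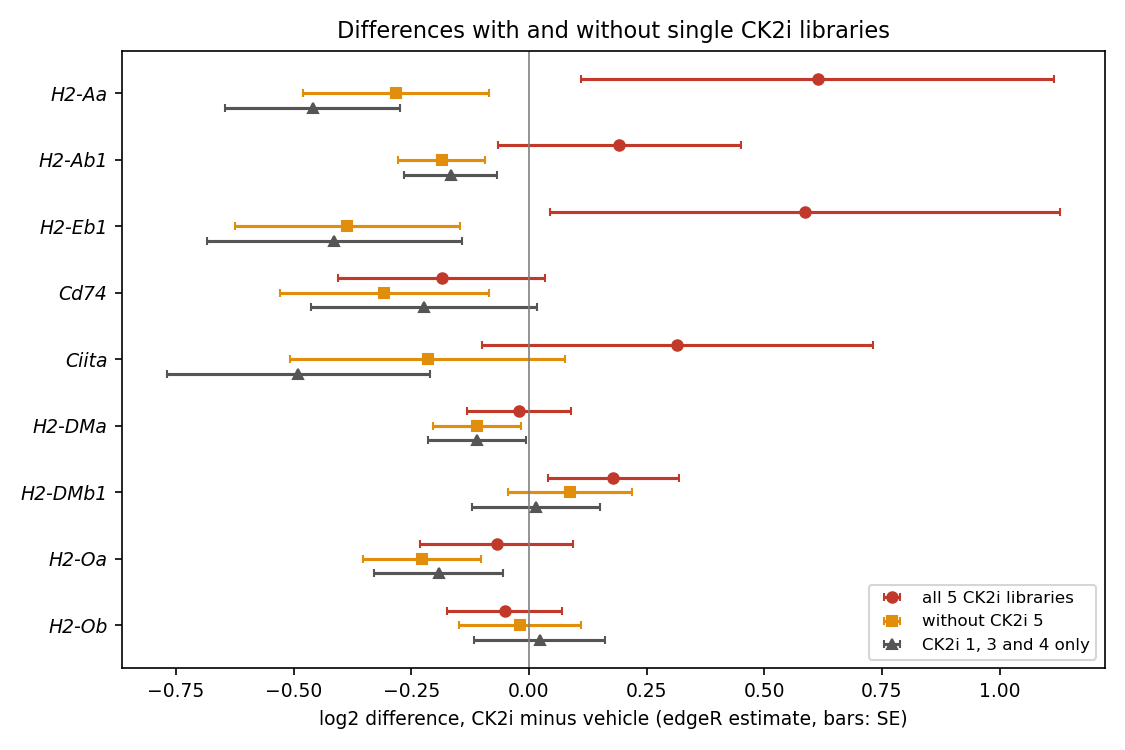
Log2 differences, CK2i minus vehicle, of the 9 members as edgeR estimates with SE bars, for all 5 CK2i libraries (circles), without CK2i 5 (squares) and for CK2i 1, 3 and 4 only (triangles). The estimates of H2-Aa, H2-Ab1, H2-Eb1 and Ciita lie above 0 with all libraries and below 0 in both reduced sets.

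The pattern in the members was thus that of 1 treated library, CK2i 5. It was singled out after its values were seen, and what follows describes it with no test. CK2i 5 held the highest CPM of the 10 libraries for 7 of the 9 members, the exceptions being Cd74 and H2-Ob, and for 13.7% of all tested genes. It was at least 2-fold above every other library for 3 members, H2-Aa, H2-Eb1 and Ciita, and for 0.279% of all tested genes. Its H2-Eb1 was 5.80 times, its H2-Aa 5.33 times, its Ciita 3.56 times and its H2-Ab1 2.49 times the median CPM of the other 4 CK2i libraries. The same ratio was 1.67 for Cd74, 1.61 for H2-Oa, 1.37 for H2-DMb1, 1.33 for H2-DMa and 0.909 for H2-Ob. At least a 2-fold ratio was reached by 4 members and by 1.83% of all tested genes. CK2i 2, which stood beside CK2i 5 on the first principal component, did not share the pattern: its sum of the 3 classical chains was 15.3 FPKM, against 51.6 FPKM in CK2i 5, 12.9 to 15.3 FPKM in CK2i 1, 3 and 4 and 14.1 to 20.3 FPKM in vehicle libraries.

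The balance between members shifted in that library too. H2-Aa reached 0.741 times the FPKM of H2-Ab1 in CK2i 5, against 0.222 to 0.490 times in the other CK2i libraries and 0.316 to 0.423 times in vehicle libraries. H2-DMa, which exceeded H2-Ab1 by 2.60 to 2.93 times in the other CK2i libraries and by 2.51 to 2.93 times in vehicle libraries, was at 1.43 times in CK2i 5. Between the H2-DM chains the ratio of H2-DMa to H2-DMb1 in CK2i 5, at 2.13, lay among those of the other libraries, at 1.93 to 2.67 in CK2i and 2.35 to 2.97 in vehicle. Across the 10 libraries, log2 CPM of H2-Aa had a Pearson correlation of 0.96 with H2-Eb1, 0.92 with H2-Ab1 and 0.89 with Ciita, of 0.37 with Cd74 and of -0.32 with H2-Ob. Without CK2i 5, over 9 libraries, these were 0.79, 0.43, 0.68, 0.22 and -0.13. They are given as a description, since the points share 2 groups and the depth of each library.

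Of the members, 7 lie in the class II region of chromosome 17, and the pattern of CK2i 5 was uneven along it. Between the start of H2-Oa at 34092340 and the end of H2-Ea-ps at 34344645, 13 genes were tested. The classical genes H2-Ab1, H2-Aa and H2-Eb1 at one end had the highest ratios, while their neighbour H2-Ob had a ratio below 1. In the middle of the region, and shown for their position, stand 4 genes of the class I pathway, the immunoproteasome subunits Psmb9 and Psmb8 and the peptide transporter chains Tap1 and Tap2, at 2.15, 1.57, 1.97 and 1.26 times the median of the other CK2i libraries. Brd2, a chromatin reader next to H2-DMa, was at 0.932 times.

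**Figure D3:**
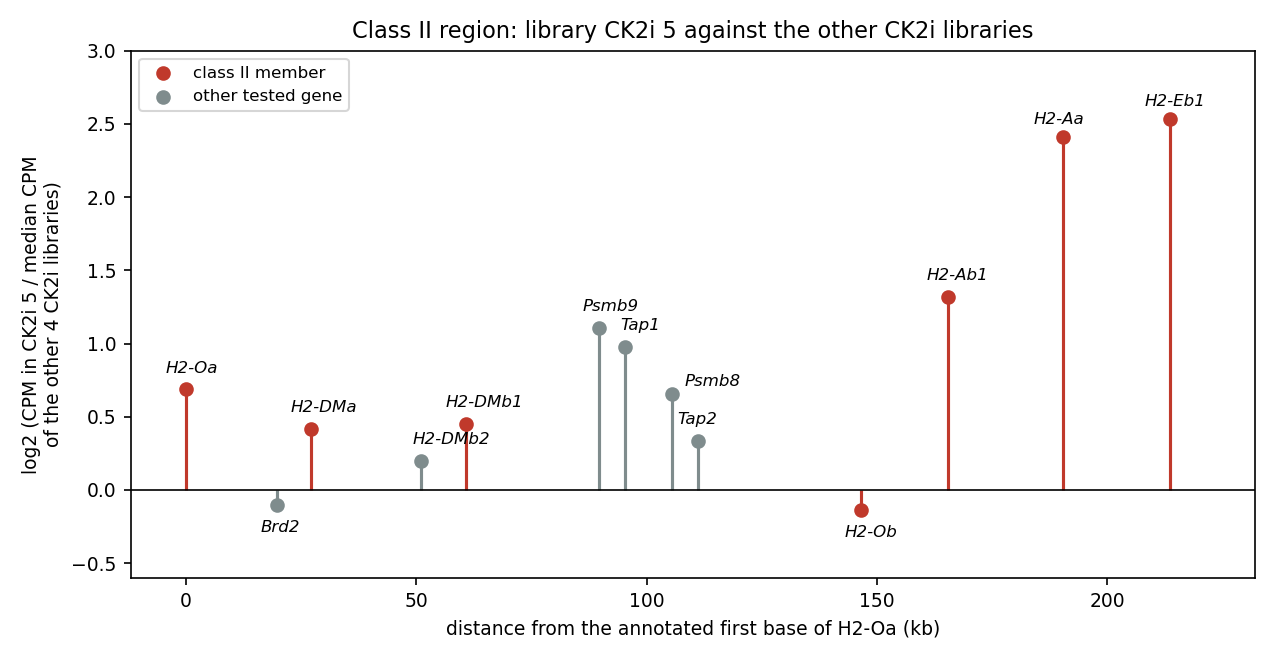
Log2 ratio of CPM in CK2i 5 to the median CPM of the other 4 CK2i libraries (vertical axis) for the 13 tested genes of the class II region, placed by their annotated lower coordinate in kb from that of H2-Oa (horizontal axis); members are red and other genes grey. H2-Eb1, H2-Aa and H2-Ab1 have the highest values, at 2.54, 2.41 and 1.32, and H2-Ob and Brd2 lie below 0.

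Around the members stands a list of 33 further genes of the class II pathway, 30 of which were tested. By edgeR 2 rose and 3 fell in CK2i, where 6.43% of all tested genes rose and 6.76% fell, and the list's median log2 difference was 0.13. In the promoter complex, 1 of 7 rose and 1 fell. Nfya, a subunit of NF-Y, rose to 101 ± 12.4 CPM in CK2i, against 85.0 ± 2.06 CPM in vehicle (log2 0.26 ± 0.07, edgeR adjusted p = 0.0436). Its partner Nfyb fell to 45.3 ± 2.78 CPM in CK2i, against 50.7 ± 1.64 CPM in vehicle (log2 -0.16 ± 0.05, edgeR adjusted p = 0.0492). The 3 RFX subunits that bind the X box did not pass: Rfx5 differed by -0.05, Rfxank by -0.08 and Rfxap by -0.05 on the log2 scale (edgeR adjusted p = 0.571, 0.417 and 0.686).

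Among 7 regulators of Ciita, 1 rose and none fell, a share near the 13.2% of all tested genes called in either direction. Spi1, which encodes the myeloid and B cell factor PU.1, rose to 59.5 ± 10.2 CPM in CK2i, against 41.6 ± 7.90 CPM in vehicle (log2 0.52 ± 0.15, edgeR adjusted p = 0.0428). Irf1, a factor induced by interferon and named here after its values were seen, had the same single high library as the classical chains. Irf1 was at 19.7, 26.5, 23.7, 21.6 and 52.1 FPKM in CK2i, against 15.2 to 21.2 FPKM in vehicle libraries. It did not pass (log2 0.66 ± 0.26, edgeR adjusted p = 0.106). Irf8, a dendritic and monocyte lineage factor, differed by 0.19 ± 0.17 (edgeR adjusted p = 0.444).

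In the interferon gamma receptor list, 2 of 4 fell and none rose, where 6.76% of all tested genes fell and 6.43% rose. Jak2 fell to 162 ± 8.77 CPM in CK2i, against 201 ± 18.2 CPM in vehicle, with every CK2i library below every vehicle library (log2 -0.32 ± 0.06, edgeR adjusted p = 0.0181). The groups also kept apart without overlap for Nfya and Nfyb, and for 10.9% of all tested genes. Jak1 fell to 203 ± 7.28 CPM in CK2i, against 223 ± 7.74 CPM in vehicle (log2 -0.14 ± 0.04, edgeR adjusted p = 0.0407). Of these 5 calls, Jak2 was kept in all 10 fits that left out 1 library, Jak1 in 4, Nfya and Spi1 in 3 each and Nfyb in 2. Without CK2i 5, Jak2 alone passed, while the log2 differences of the others kept their direction and most of their size, at -0.12 for Jak1, 0.22 for Nfya, 0.46 for Spi1 and -0.14 for Nfyb. None of them did when CK2i 2 was also left out, Jak2 at an edgeR adjusted p of 0.0804.

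The remaining lists held no call. Of 6 lysosomal genes, Ctss, the protease that trims Cd74, was at 44.2 ± 9.23 CPM in CK2i and 33.5 ± 5.84 CPM in vehicle (log2 0.40 ± 0.15, edgeR adjusted p = 0.0883). Ifi30, the lysosomal thiol reductase that unfolds antigens, differed by 0.14 ± 0.10 (edgeR adjusted p = 0.332). Of 6 surface partners, 5 were tested, which included the costimulatory receptors Cd86 and Cd40 and the ubiquitin ligases March1 and March8 that remove class II from the surface. Of the other class II chains, H2-DMb2 was the 1 tested and differed by 0.30 ± 0.20 (edgeR adjusted p = 0.305). H2-Eb2 was too low to be tested, at 0.09 to 0.16 FPKM in CK2i and 0.04 to 0.16 FPKM in vehicle libraries.

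Markers of the cell types that carry most class II did not all move with CK2i 5. Of 9 B cell markers, 4 were tested and none passed. The summed level of this list was 14.7 to 19.0 FPKM in CK2i libraries, with the highest value in CK2i 5, and 13.0 to 18.0 FPKM in vehicle libraries. Most of it was Cd79b, at 14.4 ± 1.75 FPKM in CK2i and 12.6 ± 1.82 FPKM in vehicle libraries. The median log2 difference of the 4 tested was -0.26, with Cd79b alone above 0. Cd79a, its partner in the B cell receptor, was at 1.42 ± 0.362 FPKM in CK2i, with 1.31 FPKM in CK2i 5, and 2.10 ± 0.415 FPKM in vehicle libraries (log2 -0.57 ± 0.20, edgeR adjusted p = 0.0766). Of the defining B cell genes, Ms4a1, the CD20 antigen, and Pax5, the factor that commits cells to the B lineage, stayed at or below 0.33 FPKM in every library. The 8 dendritic cell markers summed to 13.5 to 15.9 FPKM in CK2i libraries, with CK2i 1 and 5 at the low end. In vehicle libraries the sum was 16.2 to 19.7 FPKM. Most of it was Zbtb46, at 8.44 to 10.66 FPKM in CK2i and 10.04 to 13.27 FPKM in vehicle libraries. Zbtb46 overlapped between the groups and did not pass (log2 -0.29 ± 0.09, edgeR adjusted p = 0.0528). The median log2 difference of the 7 tested was -0.25, with Xcr1 alone above 0, at 0.35, and Itgax at -0.02. Of the 7 tested, Ccr9, a chemokine receptor of plasmacytoid dendritic cells, fell (log2 -0.80 ± 0.21, edgeR adjusted p = 0.0356), against -0.68 without CK2i 5 (edgeR adjusted p = 0.0735). This 1 call of 7 was near the 13.2% of all tested genes called in either direction.

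Macrophage markers were high in CK2i 5. The 9 genes of this list summed to 58.2 FPKM in CK2i 5, to 21.3 to 52.0 FPKM in the other CK2i libraries and to 13.3 to 35.1 FPKM in vehicle libraries, and CK2i 5 was the highest library for 7 of the 8 tested, as it was for 13.7% of all tested genes. CK2i 2, at 52.0 FPKM, came next in this sum, and its H2-Aa, H2-Ab1 and H2-Eb1 summed to 15.3 FPKM. A link between macrophage markers and class II chains was not tested. Adgre1, the F4/80 antigen, was the 1 marker of the 8 tested that passed (log2 0.85 ± 0.24, edgeR adjusted p = 0.0436), against 0.68 ± 0.23 without CK2i 5 (edgeR adjusted p = 0.101). That share was near the 13.2% of all tested genes called in either direction.

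T cell markers, 5 in all, summed to at most 1.53 FPKM in CK2i and 1.28 FPKM in vehicle libraries. The 3 plasma cell markers summed to 210 to 365 FPKM in CK2i and 418 to 565 FPKM in vehicle libraries, and of the treated libraries CK2i 3 was the highest and CK2i 5 the lowest. Nearly all of this sum was Jchain, the joining chain of secreted antibodies, which fell to 251 ± 55.1 FPKM in CK2i, against 482 ± 60.4 FPKM in vehicle (log2 -0.94 ± 0.14, edgeR adjusted p = 0.0061). Jchain was the 1 call among the 3, where 6.76% of all tested genes fell. It also passed without CK2i 5 (edgeR adjusted p = 0.0151) and with CK2i 2 left out as well (0.0313). Sdc1, the plasma cell antigen CD138, did not pass and had an estimate above 0, at 6.68 ± 1.31 FPKM in CK2i and 5.84 ± 0.781 FPKM in vehicle (log2 0.20 ± 0.14, edgeR adjusted p = 0.329). Mzb1, the remaining marker, did not pass either and had an estimate below 0, at 7.95 ± 3.23 FPKM in CK2i and 11.6 ± 1.13 FPKM in vehicle (log2 -0.54 ± 0.22, edgeR adjusted p = 0.114). A list of 9 class I genes, among them Nlrc5, the class I counterpart of Ciita, summed to 4091 FPKM in CK2i 5, against 2265 to 2437 FPKM in the other CK2i libraries and 2003 to 2224 FPKM in vehicle libraries. All 9 were highest in CK2i 5, as were 13.7% of all tested genes. None passed at an adjusted p of 0.05, where 13.2% of all tested genes did. At an unadjusted p of 0.05 7 passed, where 34.6% of all tested genes did. The list's median log2 difference was 0.40. Without CK2i 5 that median was 0.21, and Tapbp, the chaperone tapasin, named after its values were seen, passed (log2 0.28 ± 0.06, edgeR adjusted p = 0.0474). Of all tested genes, 3.09% passed in that fit. Nlrc5 itself was at 13.5, 22.4, 16.1, 16.3 and 37.0 FPKM in CK2i libraries 1 to 5, against 11.5 to 14.3 FPKM in vehicle libraries (log2 0.63 ± 0.24, edgeR adjusted p = 0.0924). The part of these cell types and of the interferon-related genes in the class II values was not tested.

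**Figure D4:**
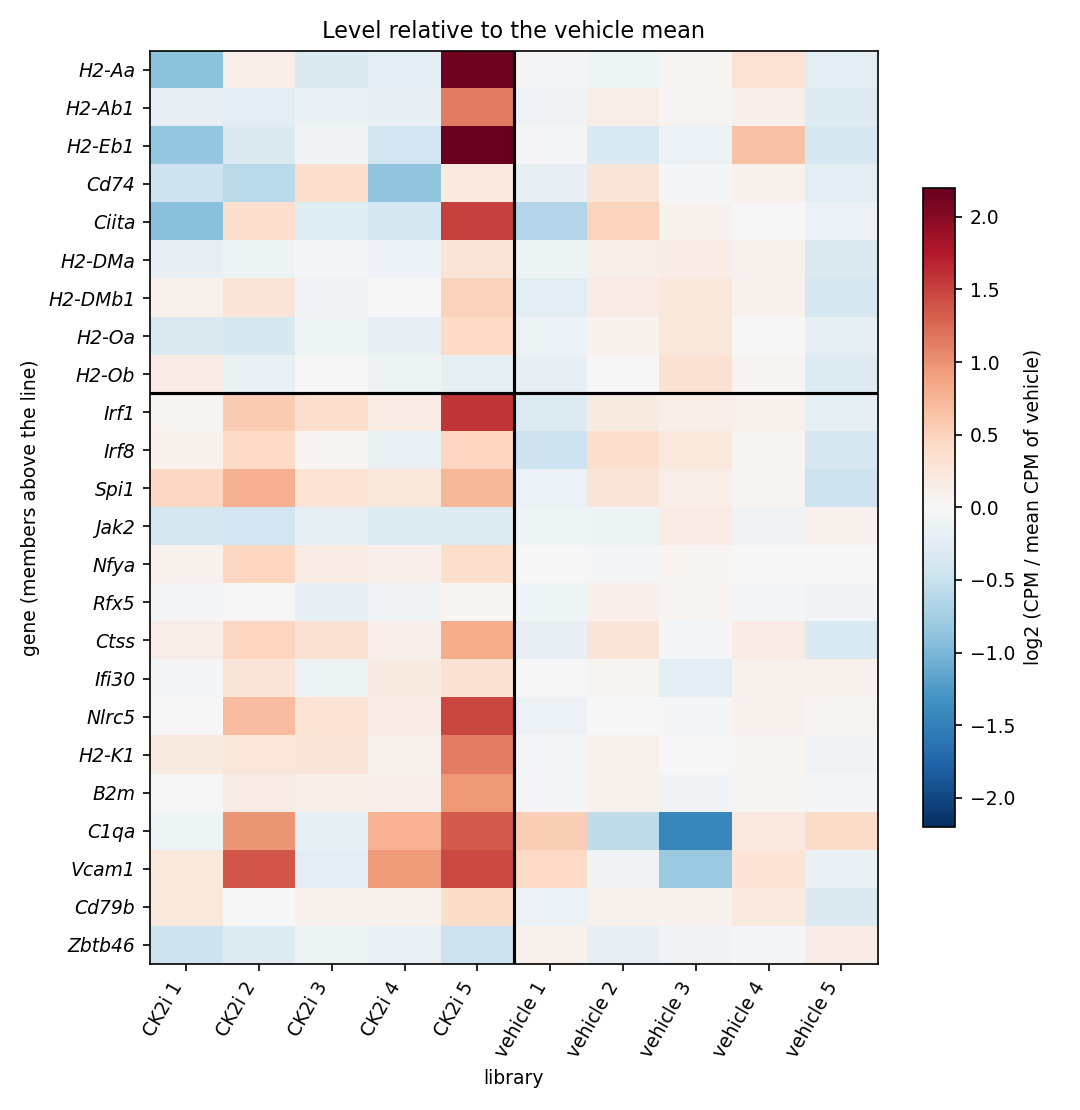
Log2 ratio of CPM in each library to the mean CPM of the vehicle group (colour scale, red higher) for the 9 members, above the horizontal line, and 15 genes of the pathway, of class I and of other cell types below it, with CK2i libraries left of the vertical line. The column of CK2i 5 is reddest for H2-Aa, H2-Ab1, H2-Eb1, Ciita, Irf1, Nlrc5, H2-K1, B2m, Vcam1 and C1qa. CK2i 2 is reddest for Vcam1 and C1qa and paler red for Spi1, Nlrc5 and Irf1, at 0.775, 0.683 and 0.556. Its classical chains are near the vehicle mean.

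The genes most like the class II profile were sought among 10864 other named genes with a mean of at least 1 FPKM, by Pearson correlation of log2 CPM with the mean of H2-Aa, H2-Ab1, H2-Eb1 and Cd74 over the 10 libraries. The 5 highest were Klhl18, H2-T23, Tsga10, Ifi47 and Snord15a, at 0.90, 0.90, 0.89, 0.88 and 0.88. H2-T23 encodes a nonclassical class I molecule and Ifi47 an interferon-induced GTPase. H2-T23 was at 119 FPKM in CK2i 5, against 70.0 to 80.9 FPKM in the other CK2i libraries and 77.4 to 83.7 FPKM in vehicle libraries. Without CK2i 5, over 9 libraries, the correlations were 0.69, 0.44, 0.66, 0.30 and 0.31. The likeness of H2-T23, Ifi47 and Snord15a thus rested largely on that library, and that of Klhl18 and Tsga10 less so. Klhl18 and Tsga10 varied little, from 3.90 to 4.76 FPKM and from 2.13 to 2.81 FPKM over the 10 libraries. As the highest of 10864 genes over 10 libraries, these correlations are a description, and a shared control with class II was not tested.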

How the data were processed

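RNA was sequenced from hematopoietic progenitors as paired reads from a stranded total RNA kit, per the labels' protocols. Per the submitters' processing notes, Bowtie2, RSEM 1.2.31 and DESeq2 were used with genome build mm10; the sources used here state no annotation or strand setting. The estimated counts as deposited hold whole numbers only, which RSEM does not give by itself. The deposited FPKM values were scaled by the authors for transcript length and depth. Symbols and coordinates came from GENCODE M21 on GRCm38, the assembly also called mm10; 37570 of 38887 identifiers matched, and 2 empty lines were left out.

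Counts were tested with edgeR 4.0.16 (quasi-likelihood, TMM, filterByExpr with a minimum count of 10, group as the only term), two-sided with Benjamini-Hochberg adjustment over 14346 genes and a threshold of 0.05. An SE is the size of the log2 difference divided by the square root of F. CPM are scaled by TMM. Each library held at least 34127674 counts. Within groups, every pair of libraries differed beyond sampling noise (chi-square per degree of freedom of at least 10.96). The script was tested on simulated data. Alternatives used DESeq2 1.42.0, limma 3.58.1 on log2(FPKM + 1) and log2(FPKM + 0.1), RLE scaling, no filter, a replicate block and libraries left out. Members and lists were chosen with earlier results of these data known. The rule for naming genes took all members, pathway genes that passed, 11 listed others, markers and the 5 most alike genes; some listed genes are not reported here.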

Additional observations from a re-analysis of the deposited data

Results flagged for a closer look

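A library was picked out where its distance to the nearest library of its group took up more than 0.71 of the group's range in CPM. Among 38 genes in 2 groups each this held for 8 of 76 groups. Chance flags about 1 in 20 groups where groups are independent, which these correlated genes in shared libraries are not. Over all tested genes the share was 5.11% in the CK2i group, with CK2i 5 the high library in 0.843%, and 4.94% in the vehicle group. CK2i 5 was the library in 5 of the 8, and 5 of the 8 were members, the genes and library already described above. It was high at 16.2 CPM for H2-Aa, where the next CK2i library had 4.07 CPM. It was high at 24.1 CPM for H2-Ab1, where the next had 9.90 CPM, at 11.8 CPM for H2-Eb1, where the next had 2.52 CPM, and at 4.72 CPM for H2-Oa, where the next had 3.27 CPM. The same library had 88.2 CPM of Irf1, where the next had 43.5 CPM. Elsewhere, CK2i 3 was low for Ifngr1 at 178 CPM, where the next had 217 CPM. In the vehicle group, vehicle 4 was high for H2-Eb1 at 4.10 CPM, where the next had 2.54 CPM, and vehicle 1 was high for Rfxap at 18.1 CPM, where the next had 15.4 CPM.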

How the results depend on the processing

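No member was called under any of the 17 alternatives, though DESeq2 did not test H2-Eb1. Leaving out 1 library in turn moved the count of all called genes between 446 (without CK2i 5) and 3198 (without CK2i 3), with 617 without CK2i 2 and 458, 758, 528 and 546 without vehicle 1, 3, 4 and 5. It moved that of the other pathway genes between 1 and 6, and the members' median log2 difference between -0.22 (without CK2i 5) and 0.23. Over the same fits H2-Aa ran from -0.28 to 0.83, H2-Ab1 from -0.19 to 0.29, H2-Eb1 from -0.39 to 0.80, Ciita from -0.22 to 0.51, H2-DMa from -0.11 to 0.019 and H2-Ob from -0.12 to 0.041, each across 0. The estimates of H2-Aa, H2-Ab1, H2-Eb1 and Ciita were below 0 only without CK2i 5. With CK2i 1, 3 and 4 only, 175 genes and 0 of the pathway were called, the members' median was -0.19, and H2-Aa, H2-Ab1, H2-Eb1, Ciita and H2-Ob were at -0.46, -0.17, -0.41, -0.49 and 0.023. DESeq2 called 3176 genes and gave H2-Eb1 no p, adjusted or unadjusted. Limma called 1197 genes with a pseudocount of 1 and 1223 with 0.1, and 1 pathway gene with either; without the filter 2 pathway genes passed. The replicate block gave 1139 genes and 1 pathway gene. The labels do not say that the numbers pair, and deviations of same-numbered libraries correlated at -0.16 to 0.23, with 2 of 5 matching their own number best, so no pairing was assumed. The cause of these shifts was not tested. Depth limits Ciita.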
